A study of Mus musculus with 24 samples.

Results

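The genes of MHC class I antigen presentation and peptide loading were examined in RNA-seq of isolated mouse hepatocytes. The set held 10 genes, picked by symbol from the 55421 genes of the count table: the heavy chains H2-K1, H2-D1, H2-T23, H2-Q4, H2-Q6 and H2-Q7, the light chain B2m, and the loading genes Tap1, Tap2 and Tapbp. All 10 passed the filter on low counts, as did 13583 genes in all. The study asked how age changes the response of the liver to a high-fat diet (HFD), and it isolated hepatocytes to limit the share of immune cells. RNA came from 24 male mice in 4 groups of 6: young on normal diet (young ND, YND), young on HFD (YHFD), old on normal diet (old ND, OND) and old on HFD (OHFD). According to the labels, young mice were C57BL/6N and 6 months old and old mice were C57BL/6J and 24 months old, and age therefore cannot be told apart from substrain. The study's text gives other ages and writes only C57BL/6. All mice were kept on their diet for 9 weeks. HFD supplied 60% of energy from fat, and the normal diet was, per the labels, a standard chow from another supplier, whereas the study's text names a low-fat diet of the HFD supplier. By the study's own account the diets also differed in carbohydrate. Each group had 3 mice in batch 1 and 3 in batch 2, apart from old ND with 2 and 4. Batch is the submitters' word, with no more said of it.

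MHC class I molecules carry short peptides from inside the cell to its surface, where CD8+ T cells read them. Each molecule is a heavy chain encoded in the H2 region paired with beta-2 microglobulin. Proteasomes cut the peptides, the transporter built from Tap1 and Tap2 moves them into the endoplasmic reticulum, and tapasin, encoded by Tapbp, holds the empty heavy chain to the transporter while a peptide is loaded. Nearly every nucleated cell makes these proteins. Hepatocytes make little of them compared with leukocytes, and interferons raise them in many cell types, with IRF1 and NLRC5 among the factors that drive the genes.

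Total counts per mouse were from 9200332 to 22185069, with the lowest depth in old HFD replicate 5. The 7 hepatocyte markers found in the table summed to between 42835 and 156864 CPM (counts scaled to the TMM-adjusted library size) in every mouse, against 4.30 to 828 CPM for 19 leukocyte markers, so the label of hepatocytes held for all libraries. Old ND replicate 4 stood apart, with the highest leukocyte sum and the lowest hepatocyte sum of the 24 mice. It also had the highest endothelial sum, 596 CPM, and the highest stellate cell sum, 360 CPM. Ptprc, which encodes the leukocyte surface protein Cd45, served as the measure of immune cell carry-over. It was at 0 counts in young ND replicate 2, which allows up to 0.201 CPM (3 counts at the TMM-adjusted size of that library; counting error only), and at 31.4 CPM in old ND replicate 4. In such bulk samples, fewer cells of a type and less RNA per cell cannot be told apart.

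In the GRCm38 build, 9 of the 10 genes lie on chromosome 17, between 33915899 (Tapbp) and 36032855 (H2-T23), and B2m lies on chromosome 2 from 122147686 to 122153083. Promoter sequences of RefSeq (GRCm38.p6) were available for 9 of the 10, all but Tap2. Stretches of 4 of them are given here because they hold the elements by which these genes are known to be controlled together. Each was read 5′ to 3′ on the strand of the gene, and H2-K1 lies on the minus strand. Capitals mark 4 motifs searched on both strands in the 250 bases before the RefSeq start. The first was GAANNGAAA, the core of the interferon-stimulated response element, which appears here as its reverse complement TTTCNNTTC. The next was an NF-kB type site, GGG followed after any 4 bases by CCC. Another was TGACG, as found in sites for factors of the CREB family. The last was CCAAT, the site bound by the factor NF-Y, which in some of these promoters lies on the opposite strand as ATTGG. The H2-K1 stretch is chr17:34000354-34000479 (minus strand), the H2-Q6 stretch chr17:35424656-35424804, the H2-Q7 stretch chr17:35439017-35439148 and the B2m stretch chr2:122147604-122147643.
H2-K1: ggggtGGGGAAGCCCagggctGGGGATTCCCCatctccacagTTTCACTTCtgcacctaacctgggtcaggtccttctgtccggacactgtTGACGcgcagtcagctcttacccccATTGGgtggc
H2-Q6: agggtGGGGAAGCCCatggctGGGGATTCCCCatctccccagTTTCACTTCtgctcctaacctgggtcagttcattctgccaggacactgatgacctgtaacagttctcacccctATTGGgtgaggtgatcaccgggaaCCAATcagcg
H2-Q7: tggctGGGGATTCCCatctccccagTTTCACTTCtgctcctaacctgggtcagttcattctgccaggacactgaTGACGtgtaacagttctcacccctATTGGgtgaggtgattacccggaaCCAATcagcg
B2m: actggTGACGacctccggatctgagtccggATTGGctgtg

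GAANNGAAA and the NF-kB type motif were each found in 5 of the 9 promoters, and in both cases in H2-K1, H2-D1, H2-Q4, H2-Q6 and H2-Q7. Among the promoters of 27025 genes, 6.34% held GAANNGAAA and 10.06% held the NF-kB type motif. In those 5 genes the start of TTTCNNTTC lay 73 or 74 bases before the start of ATTGG. All 9 promoters held CCAAT on either strand, against 34.5% of all, and 6 held TGACG, against 17.9%. The motifs did not overlap each other, although the NF-kB type motif matched at adjoining positions where the run of G was longer. The windows of H2-T23, B2m, Tap1 and Tapbp held neither GAANNGAAA nor the NF-kB type motif, which says only that these letters are not in those 250 bases. For H2-T23, H2-D1 and Tapbp the annotated gene begins before the RefSeq start, and so it does for Tap1 and B2m, by at most a few bases.

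Levels between genes were compared per length, on the deposited scale of FPKM, fragments scaled by transcript length and depth. In young ND the median over 6 mice was 329 FPKM for H2-K1, 280 for B2m, 97.4 for H2-D1, 67.3 for H2-T23 and 12.4 for H2-Q7. These 5 did not overlap one another in young ND. The 5 genes below them were Tapbp (4.8 FPKM), H2-Q6 (4.57), H2-Q4 (4.01), Tap1 (1.81) and Tap2 (1.47). Tapbp overlapped H2-Q6, H2-Q6 overlapped H2-Q4, and Tap1 overlapped Tap2. In old HFD the order from H2-K1 to H2-Q7 was the same, with medians of 518, 411, 184, 138 and 20.7 FPKM, but H2-K1 then overlapped B2m and H2-D1 overlapped H2-T23. Counts behind a value in a mouse were never below 181 (Tap2 in young ND replicate 3).

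H2-K1 encodes the classical heavy chain H-2K, which presents peptides to CD8+ T cells. In young ND it ranged from 1065 to 1270 CPM with a median of 1186. It was from 1273 to 1737 CPM (median 1379) in young HFD, from 995 to 1879 (median 1315) in old ND and from 1355 to 2359 (median 2017) in old HFD. Every old HFD mouse was above every young ND mouse, and young HFD also cleared young ND, if narrowly. Old ND spanned young ND on both sides. Between old HFD and young ND its log2 fold change was 0.73 (standard error 0.15), with an adjusted p = 0.00121. This and every adjusted p that follows come from quasi-likelihood tests in edgeR, with Benjamini-Hochberg correction over all tested genes. Old HFD over old ND was 0.52 (standard error 0.15, adjusted p = 0.0528) and did not pass.

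H2-D1 encodes the other classical heavy chain of these mice, H-2D. Its CPM was from 373 to 454 (median 399) in young ND, from 467 to 688 (median 489) in young HFD, from 470 to 845 (median 557) in old ND and from 498 to 1018 (median 781) in old HFD. All 18 mice of the other groups lay above all 6 young ND mice. It was called in old ND over young ND (log2 fold change 0.54, standard error 0.16, adjusted p = 0.0351) and in old HFD over young ND (0.91, standard error 0.16, adjusted p = 0.000503). Young HFD over young ND was 0.43 (adjusted p = 0.113).

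H2-T23 encodes Qa-1, a nonclassical heavy chain that presents a narrow set of peptides and is read by receptors of natural killer cells. Its CPM was from 138 to 200.5 (median 155) in young ND, from 177 to 268 (median 219) in young HFD, from 167 to 296 (median 198) in old ND and from 245 to 512 (median 375) in old HFD. Old HFD was separate from young ND only. The lowest old HFD mouse, replicate 5, lay within the range of old ND and of young HFD. It was the only gene of the 10 called in old HFD over each of the other groups, by 1.18 over young ND (standard error 0.16, adjusted p = 4.04e-05), 0.77 over young HFD (standard error 0.15, adjusted p = 0.0152) and 0.75 over old ND (standard error 0.16, adjusted p = 0.0133). These comparisons share the old HFD mice.

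H2-Q4, H2-Q6 and H2-Q7 belong to the Qa-2 region of nonclassical heavy chains. H2-Q4 was from 16.3 to 25.5 CPM (median 21.1) in young ND, from 20.3 to 53.0 (median 32.9) in young HFD, from 29.1 to 71.3 (median 37.7) in old ND and from 32.0 to 110 (median 51.5) in old HFD. H2-Q6 was from 15.9 to 29.96 CPM (median 19.5) in young ND, from 17.1 to 45.7 (median 25.0) in young HFD, from 32.0 to 72.8 (median 36.6) in old ND and from 30.2 to 98.2 (median 46.4) in old HFD. For both genes, both old groups were separate from young ND and young HFD was not. For old HFD over young ND, H2-Q4 had the largest log2 fold change of the 10, 1.58 (standard error 0.25, adjusted p = 0.000202), and H2-Q6 followed Tap1 with 1.40 (standard error 0.27, adjusted p = 0.00103). In old ND over young ND both were 0.98, with adjusted p of 0.0157 for H2-Q4 and 0.0243 for H2-Q6.

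H2-Q7, of the same region, was from 36.9 to 56.0 CPM (median 47.5) in young ND, from 32.2 to 79.5 (median 42.0) in young HFD, from 57.4 to 85.6 (median 71.8) in old ND and from 48.8 to 99.9 (median 83.2) in old HFD. Old ND lay wholly above young ND, old HFD overlapped young ND through replicate 5, and young HFD spanned most of the range. The log2 fold change was 0.01 in young HFD over young ND (standard error 0.19, adjusted p = 0.991) and 0.14 in old HFD over old ND (standard error 0.19, adjusted p = 0.726). It was 0.74 in old HFD over young HFD (standard error 0.19, adjusted p = 0.0436) and 0.61 in old ND over young ND (standard error 0.19, adjusted p = 0.0513). Transcripts of the H2 genes share sequence. Of the 50-base windows of H2-Q7, 34.9% also occur in transcripts of other genes, against 32.0% for H2-Q6, 28.8% for H2-T23, 24.3% for H2-Q4, 13.9% for H2-D1 and 6.87% for H2-K1. How reads that fit several genes were handled is not given in the sources used here, so the split among the Q genes is uncertain.

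B2m encodes beta-2 microglobulin, the light chain that every heavy chain here needs for the cell surface, and it shared no 50-base window with another gene. It was from 1243 to 1453 CPM (median 1313) in young ND, from 1376 to 2072 (median 1597) in young HFD, from 994 to 2053 (median 1334) in old ND and from 1521 to 3116 (median 1882) in old HFD. Old HFD cleared young ND, and its 2 highest mice were replicates 2 and 3 of batch 1, at 3116 and 3085 CPM. The other 4 lay between 1521 and 1892. The log2 fold change was 0.71 in old HFD over young ND (standard error 0.16, adjusted p = 0.00329), 0.58 over old ND (adjusted p = 0.0556) and 0.14 for old ND over young ND (adjusted p = 0.682). Within batches, old HFD over young ND was 0.91 in batch 1 and 0.48 in batch 2.

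Tap1 encodes a subunit of the peptide transporter. It was from 15.4 to 19.1 CPM (median 16.2) in young ND, from 28.8 to 43.7 (median 31.6) in young HFD, from 20.8 to 60.6 (median 28.2) in old ND and from 34.5 to 79.5 (median 43.4) in old HFD. The 6 young ND mice were close together and below all 18 others. Tap1 was the only gene of the 10 called in young HFD over young ND, at 0.99 (log2; standard error 0.22) with an adjusted p = 0.0181. It was 0.87 in old ND over young ND (standard error 0.22, adjusted p = 0.017) and 1.53 in old HFD over young ND (standard error 0.22, adjusted p = 0.000104). It shares 212 exonic bases with Psmb9 on the other strand, and strand use in the counting is not given in the sources used here.

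Tap2 encodes the partner subunit. It was from 12 to 19.9 CPM in young ND, 17.01 to 30.05 in young HFD, 19.1 to 37.9 in old ND and 21.6 to 52.6 in old HFD. Only old HFD lay wholly above young ND. Tapbp was from 47.2 to 75.9 CPM in young ND, 52.1 to 117 in young HFD, 63.5 to 147 in old ND and 74.5 to 247 in old HFD, and each group overlapped the next. The log2 fold changes in old HFD over young ND were 1.01 for Tap2 (standard error 0.19, adjusted p = 0.00085) and 1.09 for Tapbp (standard error 0.20, adjusted p = 0.000622). Neither was called in another comparison. H2-Q4 shares 496 exonic bases with the antisense gene Gm11131, Tapbp shares 149 exonic bases with Zbtb22 on its own strand and 904 with the antisense gene Gm19412, and Tap2 shares 533 with Gm15821.

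**Figure D1:**
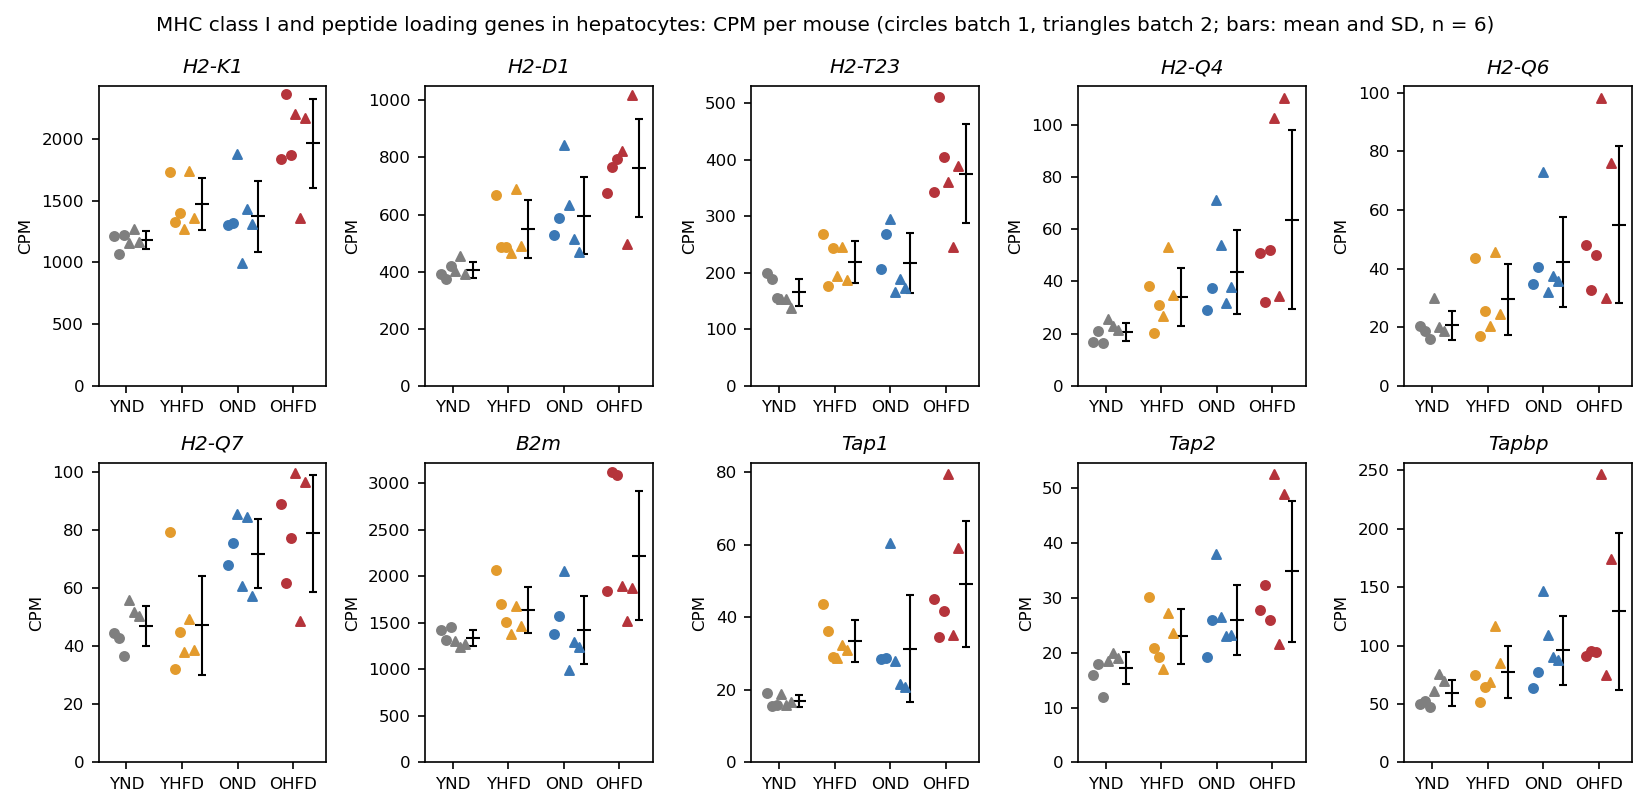
CPM of the 10 genes in each mouse, 1 panel per gene, with the 4 groups on the x axis (circles batch 1, triangles batch 2) and the mean and SD of 6 mice at the right of each group. The young ND mice lie close together at the bottom of most panels, and old HFD spreads widest, for instance from 32.0 to 110 CPM for H2-Q4.

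All 10 genes rose in old HFD over young ND, the comparison that joins age and diet, where 17.3% of all tested genes were called higher. Their median log2 fold change was 1.05, against 0.04 over all tested genes. In old HFD and young ND, 8 of the 10 did not overlap between groups and were higher, against 2.99% of tested genes. The exceptions were H2-Q7 and Tapbp. The count stayed at 10 when any 1 of the 24 mice was left out. Of these refits, only the one without old HFD replicate 2 has a share of all tested genes called higher beside it, 15.7%. All 10 differences were positive in each batch alone, from 0.76 to 1.29 in batch 1 and from 0.48 to 1.83 in batch 2. Batch 1 alone gave 9 calls, where 4.24% of all tested genes were called higher, and batch 2 alone 3, where 2.4% were.

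For age on the normal diet, H2-D1, H2-Q4, H2-Q6 and Tap1 rose in old ND over young ND, 4 of the 10, against 7.26% of tested genes called higher. The median of the 10 was 0.56, against 0.01 over all genes. Without overlap and higher were 5 (these 4 and H2-Q7), against 2.08%. Leaving out 1 mouse moved the count: it was 1 without old ND replicate 3, 2 without old ND replicate 2 or young ND replicate 3, 5 or 6, and 7 without old HFD replicate 5, a mouse of neither group that enters through the joint fit. It was 3 without old ND replicate 4. These counts without 1 mouse have no share of all tested genes beside them, and that share moves too (9.09% without old HFD replicate 2). Whether the moves are particular to the 10 was not tested. Both batches alone gave 0 calls, where 0.679% and 0.014% of all tested genes were called higher, with only positive values, from 0.10 to 1.06 in batch 1 and from 0.12 to 1.06 in batch 2.

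For age on HFD, H2-T23 and H2-Q7 were higher in old HFD than in young HFD, 2 of the 10, against 1.82% of tested genes. The values of the 10 were from 0.42 (H2-K1) to 0.87 (H2-Q6) with a median of 0.65, against 0.01 over all genes. No gene was without overlap, against 0.552% of tested genes. The count was 8 without old HFD replicate 5, 0 without young HFD replicate 4, and 1 without any of old HFD replicates 2, 4 and 6, young HFD replicates 2, 3, 5 and 6, old ND replicates 1 and 2, and young ND replicates 1 to 6. Beside these counts stands no share of all tested genes, apart from 0.761% without old HFD replicate 2. Whether the moves are particular to the 10 was not tested. Alone, both batches gave 0 calls, where 0.0665% and 0.0% of all tested genes were called higher, and the values were from 0.13 to 0.84 in batch 1 and from 0.21 to 1.16 in batch 2.

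For diet, Tap1 alone was higher in young HFD than in young ND, 1 of 10 against 1.91% of tested genes, and the median of the 10 was 0.42, against 0.01. H2-K1, H2-D1 and Tap1 did not overlap, 3 of 10 against 1.77%. Without old HFD replicate 5 the count was 2, with H2-Q4 added. Batch 1 alone gave 1 call (0.701% of all tested genes) and values from 0.33 to 1.11, and batch 2 alone gave 0 calls (0.0281%) and values from -0.30 (H2-Q7) to 0.87. In old mice, H2-T23 alone was higher on HFD, 1 of 10 against 1.37%, the median was 0.51, against -0.01, and no gene was without overlap, against 0.471%. That count was 8 without old HFD replicate 5, 4 without old ND replicate 3, 3 without old HFD replicate 1 and 2 without old HFD replicate 3. The counts without 1 mouse have no share of all tested genes beside them. That share moves too: without old HFD replicate 2 it was 3.68% in young HFD over young ND and 0.935% in old HFD over old ND. Whether the moves are particular to the 10 was not tested. Each batch alone gave 0 calls for diet in old mice, where 0.0295% and 0.0281% of all tested genes were called higher, with values from 0.04 to 0.81 in batch 1 and from 0.20 to 0.84 in batch 2.

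A difference in the effect of diet between the ages was not detectable for any of the 10. In edgeR's interaction test, 0 of 13583 genes were called (0.0%), and the lowest adjusted p among the 10 was 0.643, for H2-T23. At an unadjusted p under 0.05 there were 1247 genes (9.18%) and 0 of the 10, and DESeq2 also called 0 of the 10. The interaction values ran from -0.33 (Tap1, standard error 0.31) to 0.33 (H2-T23, standard error 0.22), so moderate differences in either direction were not detectable. Signs were mixed, with 4 of the 10 negative, and they turned with the terms of the fit: with Ptprc or the leukocyte markers added, all 10 were positive, from 0.16 to 0.57 and from 0.070 to 0.50, again with 0 called. The 5 comparisons share groups, and none is independent of the others.

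**Figure D2:**
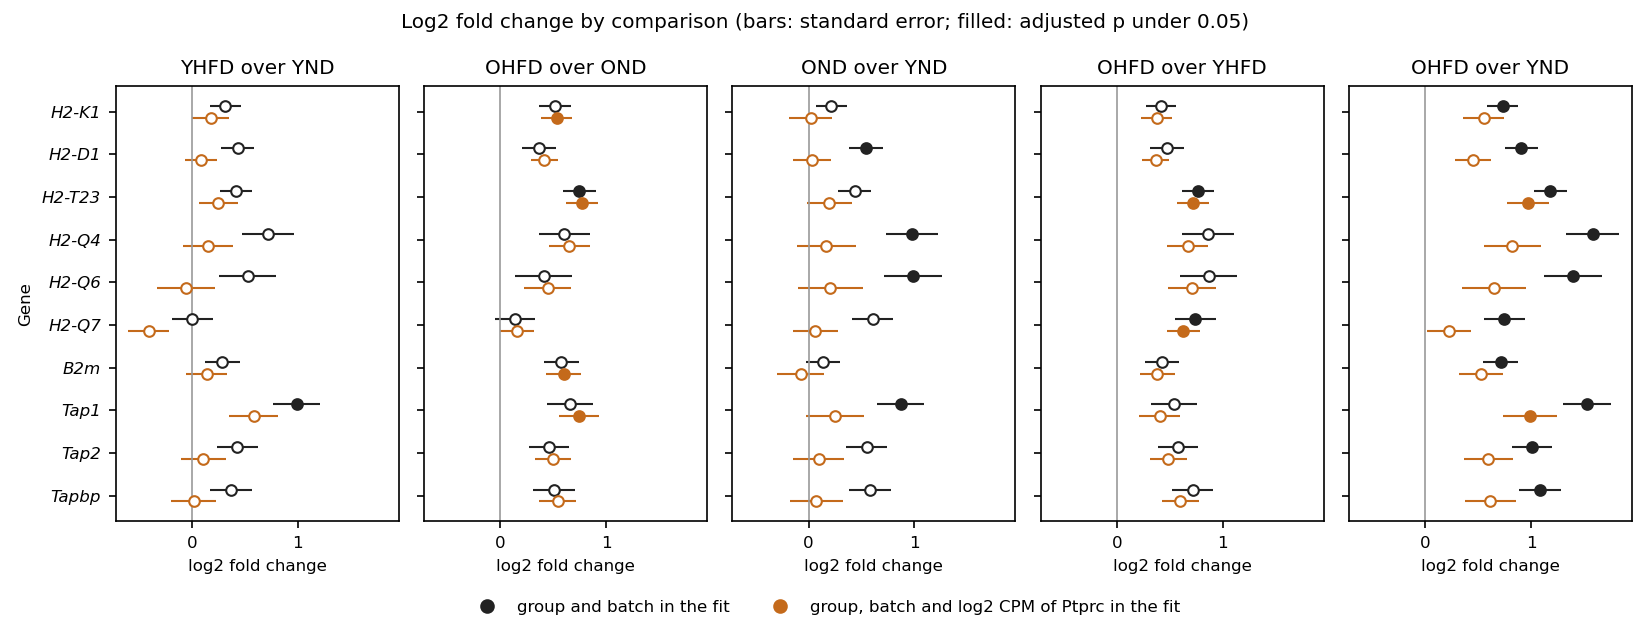
Log2 fold change (x axis) of each of the 10 genes in 5 comparisons, with standard error bars; filled points had an adjusted p under 0.05. Black points come from the fit of group and batch, where old HFD over young ND has 10 filled points. Orange points have log2 CPM of Ptprc added to the fit, and 2 stay filled there.

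Immune cell RNA differed between the groups beside these genes. Ptprc was from 0 to 2.81 CPM in young ND, 0.791 to 6.78 in young HFD, 2.14 to 31.4 in old ND and 1.18 to 15.7 in old HFD. On the log2 scale, it differed by 3.53 in old ND over young ND (standard error 0.72, adjusted p = 0.00462) and 3.01 in old HFD over young ND (standard error 0.72, adjusted p = 0.00408). Against old ND, old HFD stood at -0.51 (standard error 0.63) with an adjusted p = 0.685, while all 10 class I genes had values above 0. In young HFD over young ND it was 2.23 (adjusted p = 0.0773).

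Within groups and batches, 4 of the 10 genes rose with Ptprc, against 6.99% of tested genes with a called positive slope. The slope, in log2 CPM per log2 CPM of Ptprc, was 0.24 for H2-Q6 (standard error 0.07, adjusted p = 0.0281), 0.23 for H2-Q4 (standard error 0.06, adjusted p = 0.0124), 0.17 for H2-Q7 (standard error 0.05, adjusted p = 0.021) and 0.15 for H2-D1 (standard error 0.04, adjusted p = 0.0136). It was 0.18 for Tap1 (standard error 0.06, adjusted p = 0.0591), 0.15 for Tapbp and 0.13 for Tap2. The smallest slopes were 0.06 for H2-K1 (adjusted p = 0.466), 0.07 for H2-T23 (adjusted p = 0.408) and 0.07 for B2m (adjusted p = 0.49), each with a standard error of 0.04 to 0.05. Differences between these slopes were not tested. The count depends on old HFD replicate 5, the mouse with the lowest depth and with the lowest Ptprc of its group: without it, 0 genes were called, and the slopes were from 0.02 to 0.20. Without young HFD replicate 1 the count was 2, and without young ND replicate 2 it was 7. These refits have no share of all tested genes with a called positive slope beside them. Whether the moves are particular to the 10 was not tested.

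Single mice differed in how the genes stood beside Ptprc. Old ND replicate 4 had 31.4 CPM of Ptprc, the most of all 24 mice, together with the lowest H2-K1 (995 CPM) and the lowest B2m (994 CPM) of all 24. It was also the lowest old ND mouse for H2-T23, at 167 CPM. For other genes the same mouse was next to the highest of old ND, with 633 CPM of H2-D1, 53.9 of H2-Q4, 26.6 of Tap2 and 109 of Tapbp. It was the lowest of old ND for H2-Q6 (32.0 CPM), next to the lowest for H2-Q7 (60.8 CPM) and in the middle for Tap1 (28.0 CPM). Old HFD replicate 2 had 1.77 CPM of Ptprc, next to lowest in its group, and yet the highest H2-K1 (2359 CPM), B2m (3116 CPM) and H2-T23 (512 CPM) of all 24. For H2-Q4 and Tap1 that mouse was the lowest in old HFD, at 32.0 and 34.5 CPM. Young ND replicate 2, with 0 counts of Ptprc, had 1065 CPM of H2-K1 and 1320 CPM of B2m. Markers of other cells were still found in that library. Its endothelial markers summed to 9.67 CPM, and its leukocyte markers to no less than the 4.30 CPM of young ND replicate 1. From which cells the class I transcripts came was not tested.

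**Figure D3:**
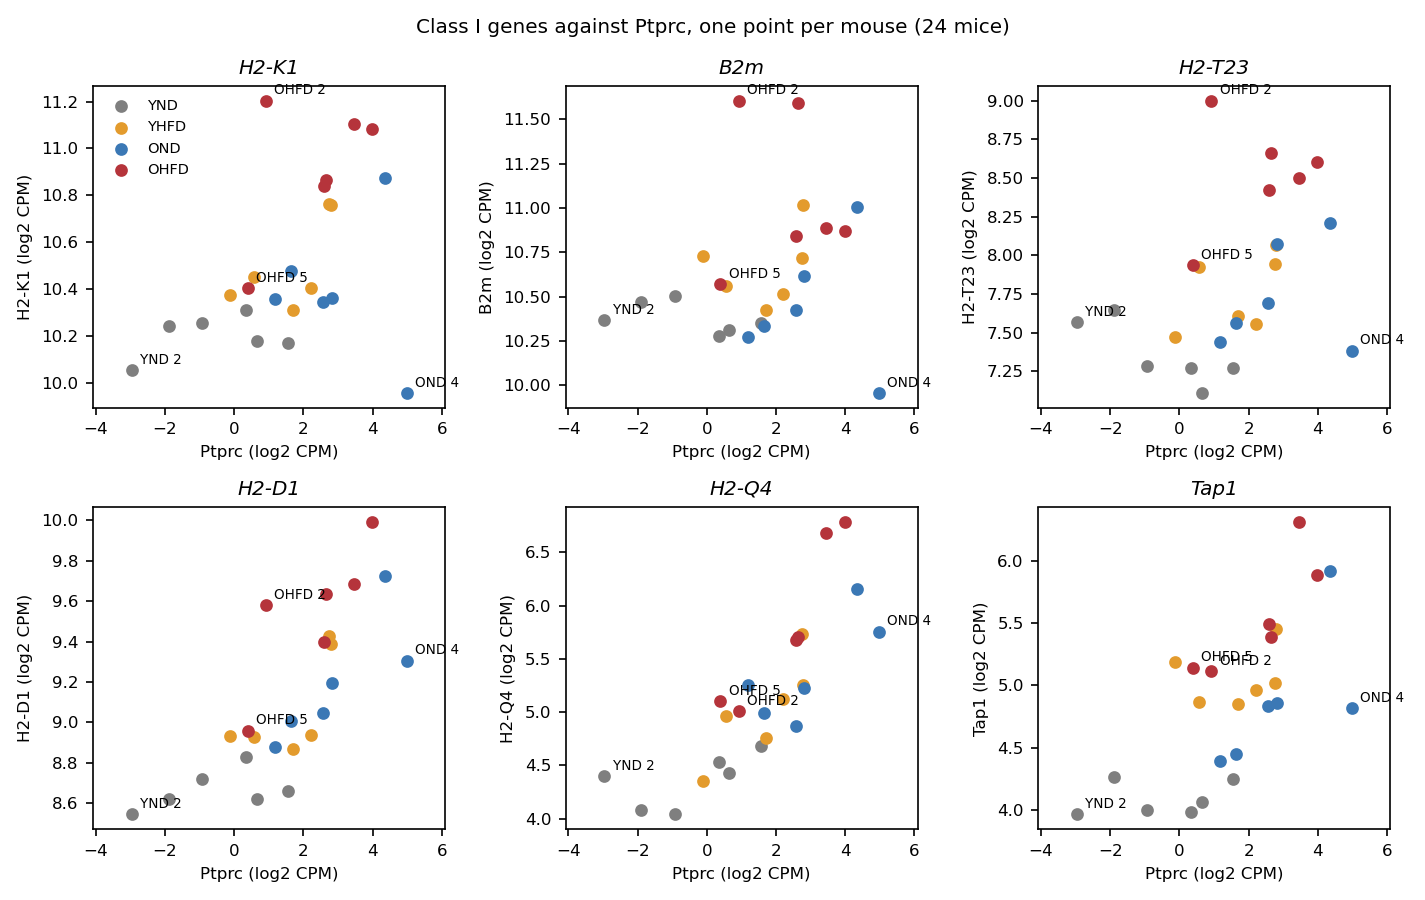
Log2 CPM of 6 of the genes (y axis) against log2 CPM of Ptprc (x axis), 1 point per mouse, coloured by group, with 4 mice named. Young ND replicate 2, with 0 counts of Ptprc, is placed by the prior count. For H2-K1, B2m and H2-T23, old ND replicate 4 sits at the lower right and old HFD replicate 2 at the top; for H2-D1, H2-Q4 and Tap1 the points rise more evenly to the right.

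With the Ptprc level held in the same fit, the calls moved. For old HFD over old ND, H2-T23 (0.77, standard error 0.15, adjusted p = 0.0082), Tap1 (0.74, standard error 0.19, adjusted p = 0.031), H2-K1 (0.53, standard error 0.15, adjusted p = 0.0425) and B2m (0.60, standard error 0.16, adjusted p = 0.0431) were called, 4 of 10, against 1.62% of tested genes. The median of the 10 in old HFD over young ND was 0.60 in place of 1.05 (0.47 with leukocyte markers), and 2 of the 10 stayed called, against 2.94%: Tap1 at 0.99 (standard error 0.25, adjusted p = 0.0281) and H2-T23 at 0.97 (standard error 0.20, adjusted p = 0.0089). H2-T23 and H2-Q7 were called in old HFD over young HFD, 2 of 10 against 1.94%. In old ND over young ND none of the 10 was called, against 0.0663% of all tested genes, and the median of the 10 was 0.08 in place of 0.56. In young HFD over young ND none was called either, against 0.427%, and the median was 0.13 in place of 0.42. The mean log2 CPM of 15 tested leukocyte markers in place of Ptprc, an alternative chosen after seeing the data, gave 4 calls in old HFD over old ND (H2-K1, H2-T23, B2m and Tap1) against 2.29% of tested genes, and 1 in old HFD over young ND (H2-T23) against 0.891%. It gave 0 in old HFD over young HFD (0.221% of tested genes), old ND over young ND (0.0515%) and young HFD over young ND (0.744%). Ptprc differed with age itself, and whether the change with age on the normal diet lay in hepatocytes or in leukocytes carried over cannot be told apart in these fits.

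Other genes of the pathway were taken from fixed lists, chosen like the 10 with earlier results of these data known. Immunoproteasome genes rose in old HFD over young ND for 5 of 5, against 17.3% of all tested genes, with a median of 1.18. Psmb8, Psmb9 and Psmb10 encode catalytic subunits that replace the constitutive ones when interferon acts, and Psme1 and Psme2 encode the PA28 regulator. Psmb9 was from 5.4 to 7.39 CPM in young ND and from 10.4 to 52.7 in old HFD (log2 fold change 1.83, adjusted p = 0.000121). Psmb8 was from 13.8 to 18.7 CPM and from 29.0 to 107 (1.67, adjusted p = 9.74e-05), and Psme1 had the smallest value, 0.43. The highest Psmb8 and Psmb9 values in old HFD were those of replicate 2, whose summed immunoproteasome level was 699 CPM against a group median of 274, and which was also the highest of that group for the summed constitutive counterparts, 494 CPM against 247. Without that mouse, an alternative chosen after seeing the data, 4 of 5 were called (15.7% of all tested genes) and the median was 0.75, with Psme1 at 0.17 (adjusted p = 0.125). Of the constitutive counterparts 0 of 3 were called, from -0.15 for Psmb7 to 0.25 for Psmb6. Old HFD over young HFD called 4 of the 5 immunoproteasome genes higher (1.82% of all tested genes), old ND over young ND 2 (7.26%), young HFD over young ND 1, Psmb9 (1.91%), and old HFD over old ND 0 (1.37%). Without old HFD replicate 2, old HFD over young HFD called 3 (0.761%).

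Of the other loading and trimming genes, among them the chaperones Calr and Canx, 0 of 8 rose and 1 fell in old HFD over young ND, where 12.9% of all tested genes were called lower, so a single fall among 8 is near that background. That gene was Uggt1, which checks the folding of glycoproteins (-0.61, adjusted p = 0.00802), and the highest value was 0.16 for Tapbpl. The median of these 8 was -0.03.

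Of the genes for class I transcription factors and for interferon receptors and kinases upstream of them, 6 of 18 rose and 1 fell in old HFD over young ND, against 17.3% and 12.9% of all tested genes, and the median of the 18 was 0.016. Irf1, a factor induced by interferon, was from 15.4 to 20.2 CPM in young ND and from 27.1 to 54.2 in old HFD (1.04, adjusted p = 0.000659), and Nlrc5, the class I transactivator, from 7.25 to 16.05 CPM and from 11.4 to 30.1 (1.02, adjusted p = 0.000765). The gene that fell was Rfxap, of the RFX complex (-0.45), and the lowest value, not called, was -0.58 for Rfx5. In old ND over young ND 4 of the 18 were higher, against 7.26% of all tested genes, with a median of 0.15. Irf1 (0.90) and Nlrc5 (0.96) were among them.

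Other class I heavy chains were called higher in 6 of 8 tested in old HFD over young ND (15 listed) and in 6 of 8 in old ND over young ND, against 17.3% and 7.26% of all tested genes. H2-Q10, a secreted heavy chain typical of liver, was not among them: it was from 1918 to 2534 CPM in young ND and from 2134 to 3513 in old HFD. The difference there was 0.24 on the log2 scale (adjusted p = 0.199) and -0.03 in old ND over young ND. H2-M2 had the highest fitted value but was at 1 count over all 6 young ND mice, and it reached 3.98 CPM in old HFD. Of 5 class I-like genes outside the loading complex, Fcgrt, which encodes the neonatal Fc receptor for IgG, was the only one called. Its value was 0.40 in old HFD over young ND and 0.54 in old HFD over old ND, against 17.3% and 1.37% of all tested genes called higher. In old HFD over young ND, Hfe had the lowest value, -0.20.

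Marker lists of other cells moved in the same comparisons. Comparing old HFD with young ND, 14 of 15 tested leukocyte markers (19 listed) were higher, against 17.3% of all tested genes, with a median of 3.51, and Cd4 had the lowest value, -0.60. Cd79a was at 0 in all young ND mice, and Cd8a, with the highest fitted value, was at 2 counts over the 6 young ND mice. Endothelial markers were higher in 7 of 7 (from 1.26 for Oit3 to 2.61 for Lyve1), stellate cell markers in 3 of 5 (from 0.78 for Reln to 4.93 for Col1a1, which was at or below 0.375 CPM in young ND), and Sox9, the 1 cholangiocyte marker tested, had 0.61. Of 7 hepatocyte markers 2 were higher and 3 lower, from -0.92 for Cps1 to 0.65 for Asgr1. Comparing old HFD with old ND, 0 of 15 leukocyte, 0 of 7 endothelial and 0 of 5 stellate cell markers were called, with medians of -0.24, 0.05 and -0.22. Only 1.37% of all tested genes were called higher there, so these counts of 0 are near the background. In old ND over young ND, 13 of 15 leukocyte, 4 of 7 endothelial and 4 of 5 stellate cell markers were higher, against 7.26% of all tested genes. The summed leukocyte markers were from 4.30 to 54.3 CPM in young ND, 15.1 to 150.02 in young HFD, 49.2 to 828 in old ND and 51.0 to 494 in old HFD. The part of these cells in the class I differences was not tested beyond the fits with Ptprc and the leukocyte markers.

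**Figure D4:**
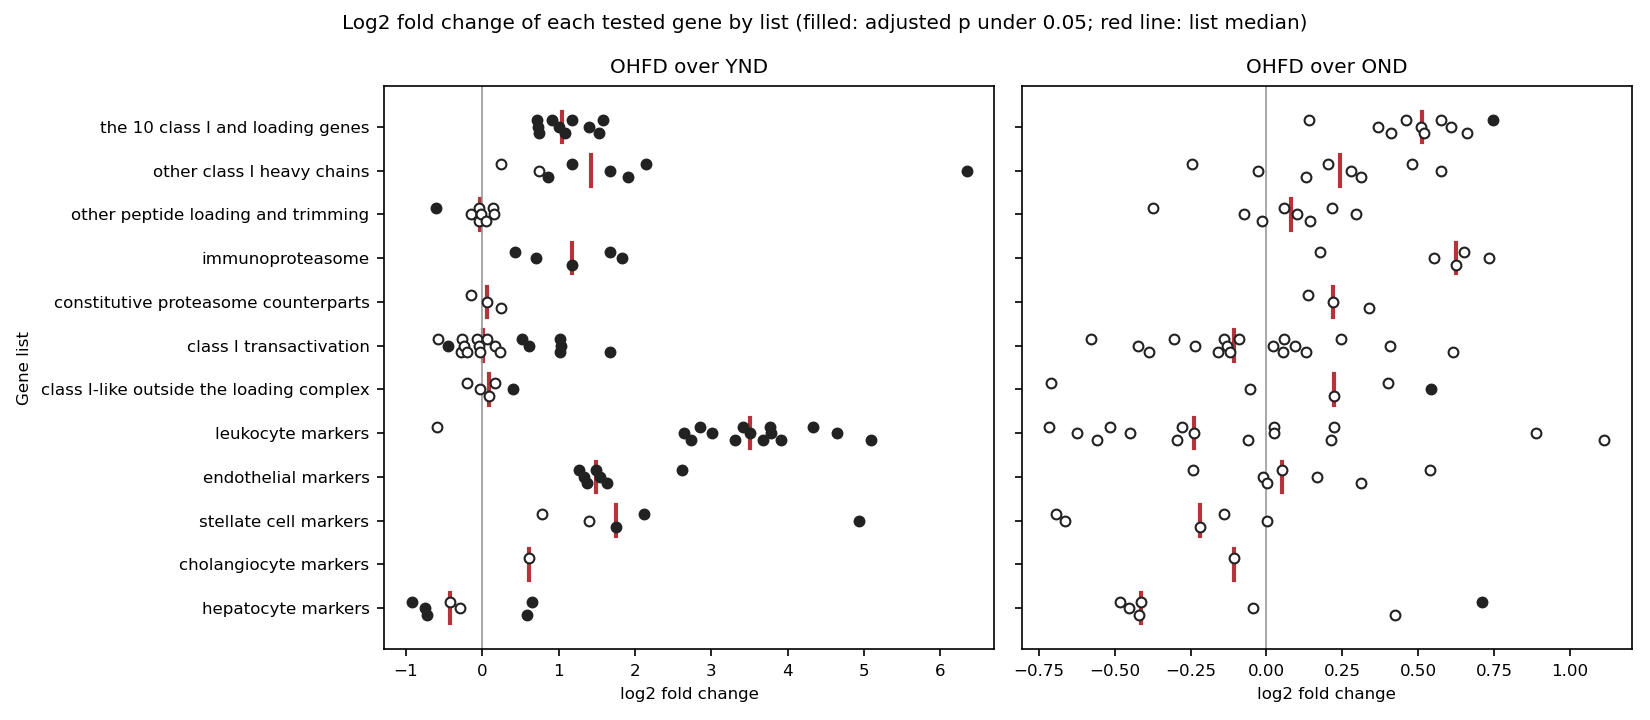
Log2 fold change (x axis) of each tested gene in 12 lists (y axis) in old HFD over young ND (left) and old HFD over old ND (right); filled points had an adjusted p under 0.05 and red lines are list medians. On the left the leukocyte markers lie farthest to the right with a median of 3.51, and on the right their median is -0.24 while that of the 10 class I genes is 0.51.

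Over the 24 mice, genes outside the set whose log2 CPM lay closest to the mean z-score of the 10 included Shisa5 (Pearson's r = 0.90), Gbp7 (0.90), Ly6e (0.89), Plau (0.89), Oasl2 (0.88), Parp11 (0.88) and Ly6a (0.87), of 13573 genes compared. These correlations are a description across mice that share groups, batches and depth. These 7 were chosen for their likeness to genes that all rose in old HFD over young ND, which largely fixes their direction there. Their values in that comparison were from 1.498 for Parp11 to 4.84 for Oasl2, an interferon-induced gene.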

How the data were processed

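Hepatocyte RNA-seq libraries of 24 mice were used, with group, replicate number and batch from the labels. The deposited table of the authors holds raw gene counts, made from polyA RNA reads checked with FastQC 0.11.8, aligned to mm10 with STAR 2.7.3a and counted with HTSeq 0.11.2, and FPKM values computed with CuffLinks, whose deposited table is named as adjusted with ComBat. Strand and duplicate handling are not given in the sources used here. The authors called DEGs with DESeq2. No column lacked a sample (0 of both tables).

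The counts were fitted with edgeR 4.0.16 in R 4.3.3 (TMM, filterByExpr by group, terms for group and batch over all 24 mice in a joint model, quasi-likelihood F tests, Benjamini-Hochberg over 13583 genes, threshold 0.05). CPM use library sizes scaled by TMM factors, and log2 CPM a prior count of 2. The slope on Ptprc used log2 CPM of Ptprc as a further term. The fits were tested on simulated data, in which the covariate was drawn independently of group. Ptprc differed between groups, so comparisons with Ptprc held were not checked under that setting. Depth per mouse was 9200332 to 22185069 counts, and reads carried no molecular identifiers, so limits cover counting error only. Separate mice were replicates, and the same replicate number marks different mice. Of the 60 pairs of mice within a group, none agreed within sampling noise, and pairs across groups were not checked.

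Named were all 10 genes, Ptprc, H2-Q10, Nlrc5, Psmb8, Psmb9, Irf1, the highest and lowest tested gene of each other list in old HFD over young ND, and the 8 nearest genes. A gene that this rule names is not reported here. Others (Calr, Canx, Rfxap, Cd79a, genes that overlap the 10) were named after their values were seen. The 10 genes and all lists were chosen with earlier results of these data known. Of 107 listed genes 106 matched, and of 55421 gene identifiers 55154 matched GENCODE vM21 (GRCm38, the mm10 build). Alternatives were DESeq2 1.42.0, RLE factors, no filter, no batch term, a replicate block, only the groups compared, each batch alone, each mouse left out, Ptprc or leukocyte markers as a covariate, and limma 3.58.1 on log2(FPKM + 1) or log2(FPKM + 0.1), with and without a mean FPKM of 0.1. For H2-K1, which has 2 RefSeq promoter entries, the one nearest to the GENCODE 5′ end was taken, and promoter stretches lying in annotated exons were not printed. Figures were drawn with matplotlib 3.10.9.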

Additional observations from a re-analysis of the deposited data

Results flagged for a closer look

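In old ND replicate 3, H2-Q6 (log2 CPM 6.19) and Tap1 (log2 CPM 5.92) lay far above the other 5 old ND mice. Both are among 44 sets of 6 values examined (10 genes and Ptprc in 4 groups), and chance alone marks about 1 in 20 such sets. In CPM the mouse had 72.8 for H2-Q6, where the others were at most 40.6, and 60.6 for Tap1, where the others were at most 28.9. Its Ptprc was 20.2 CPM, next to the highest in the group, and its H2-K1, H2-D1, B2m, H2-T23, H2-Q4, H2-Q7, Tap2 and Tapbp were also the highest of old ND. Without this mouse, 1 of the 10 genes was called in old ND over young ND in place of 4, and 4 in old HFD over old ND in place of 1. No share of all tested genes in that refit stands beside these counts, and whether the moves are particular to the 10 was not tested.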

How the results depend on the processing

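Numbers of the 10 genes called are given in the order young HFD over young ND, old HFD over old ND, old ND over young ND, old HFD over young HFD and old HFD over young ND (1, 1, 4, 2 and 10 as reported), naming only those that moved by over 1.5 times. Shares of all tested genes called higher in the same fits stand in brackets. RLE factors gave 3 in old HFD over old ND (1.77%). No filter gave 3, 3, 7 and 7 in the first 4 (3.36%, 1.67%, 5.47% and 2.71%), only the groups compared 7, 0, 7 and 0 (10.4%, 0.0318%, 7.31% and 0.378%), and DESeq2 2, 4, 8 and 8 (6.24%, 4.51%, 10.4% and 4.62%). No batch term gave 1 in old HFD over young HFD (0.751%), and 7 slopes on Ptprc in place of 4. In that fit 1806 of 13582 genes had a called positive slope, in place of 950. Batch 1 alone gave 0 in old HFD over old ND, old ND over young ND and old HFD over young HFD; batch 2 alone gave 0 in the first 4 and 3 in the last. Ptprc as a covariate gave 0, 4 and 0 in the first 3 and 2 in the last. The leukocyte markers, chosen as a covariate after seeing the data, gave 0, 4, 0, 0 and 1, and 7 slopes in place of Ptprc. There, 1045 of 13568 genes had a called positive slope. limma on log2(FPKM + 1) gave 0 in old ND over young ND and 1 in old HFD over young HFD (0.553% and 0.32%), with a pseudocount of 0.1 2 and 1 (2.17% and 0.406%), and with no filter 0 and 0 (0.0838% in both). CPM over total counts without TMM factors, added after seeing the data, gave 4 genes in place of 3 without overlap in young HFD over young ND (B2m added) and 4 in place of 5 in old ND over young ND (H2-Q6 lost). The causes were not tested. A fit of 1 batch alone also holds fewer mice, and the number of mice was not separated from the batch. Leaving out 1 mouse gave 1 to 2, 1 to 8, 1 to 7, 0 to 8 and 10 to 10, 0 to 7 slopes, and 0 for the interaction. These ranges have no share of all tested genes beside them.

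Replicate numbers mark different mice, and same-numbered mice deviated together with a mean correlation of 0.182, or -0.00199 once batch means were removed. The fit with a replicate block in place of batch gave 2 calls in old HFD over old ND (1.55%) and 1 in old HFD over young HFD (0.758%), and H2-Q7 in young HFD over young ND then was -0.031.

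Directions reversed for values that were not called. In the interaction, 4 of the 10 were negative (H2-D1, H2-Q4, H2-Q6 and Tap1). All 4 turned positive with Ptprc or with the leukocyte markers. H2-Q4 and H2-Q6 turned in batch 2 alone, H2-Q7 and Tap2 in batch 1 alone, and Tap2 with no filter, with the replicate block and with each limma fit. H2-D1, H2-Q4 and H2-Q6 turned without old ND replicate 3 or old HFD replicate 5, H2-D1 and H2-Q6 without young HFD replicate 1, Tap2 and Tapbp without old HFD replicate 4, and Tap2 alone in 8 other fits that left out 1 mouse. In the pairwise comparisons, H2-Q7 in young HFD over young ND was -0.30 in batch 2 alone, -0.41 with Ptprc, -0.35 with the leukocyte markers, -0.070 with limma on log2(FPKM + 1) with or without the filter and -0.077 with the smaller pseudocount, and from -0.19 to 0.090 with 1 mouse left out. H2-Q6 there was -0.056 with Ptprc and -0.016 with the leukocyte markers. In old ND over young ND, B2m was -0.073 with Ptprc, -0.084 with the leukocyte markers and from -0.025 (without old ND replicate 3) to 0.22 with 1 mouse left out, and Tap2 was -0.022 with the leukocyte markers. Of the other single-gene values of the pairwise comparisons, 519 of the fold changes outside leave-one-out kept direction and side of the threshold, 47 passed it newly and 72 no longer passed.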
